A study of Mus musculus with 8 samples.

Results

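In the PRC2 mutant library, most dopamine nuclei held RNA of at least 1 of 5 patterning genes that were nearly absent from wt dopamine nuclei. Of these genes 4 are Hox genes and the other is Pax3, and 385 nuclei held RNA of none. These 385 nuclei, here called rule-negative, had at least 12000 unique molecular identifiers (UMIs, the counted RNA tags). They had at least 5 UMIs per 10000 from Th, Slc6a3, Slc18a2 and Ddc together, genes of dopamine synthesis and transport. Over the 385 nuclei Ddc gave 6191 and Slc18a2 2981 of the 11139 UMIs of these genes, so the limit rests mostly on them. These nuclei had 0 UMIs of Hoxc4, Hoxc5, Hoxb3, Hoxb6 and Pax3, here called the rule genes. They made up 17.9% (exact binomial 95% interval 16.3 to 19.6%) of the 2145 mutant nuclei that passed the depth and dopamine limits, and 9.70% of the 3968 nuclei of the mutant library. The whole series held 5740 nuclei. They were set beside the other 1760 mutant nuclei within the same limits, which held at least 1 UMI of a rule gene and are called rule-positive, and beside 1093 wt nuclei within the limits, of which 1089 had 0 UMIs of the rule genes. The members were chosen on measured values, so the levels of the rule genes and of the 4 dopamine genes set by the limits describe the choice and are no finding. The name given to these nuclei, without Hox or Pax3, holds for the rule genes alone: 136 of the 385 (35.3%, 30.5 to 40.3%) had a UMI of one of the other 27 Hox genes in the table, against 1634 of 1760 rule-positive (92.8%) and 2 of 1093 wt nuclei (0.183%).

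The study took nuclei from the midbrain of adult mice, sorted them by flow cytometry and profiled them with 10x Single Cell 3' v3 chemistry, and the labels name the cell type as mDA, midbrain dopaminergic neurons. The genotypes are labelled wt and PRC2 mutant, and both carry the strain label DatCreEed, which joins the dopamine transporter (Dat) Cre driver with Eed. The driver acts in cells that make the dopamine transporter; the Eed alleles of the wt mice are not given there. Each genotype is 1 library of 3 pooled mice aged 8 months, 2 female and 1 male, sequenced on 4 lanes that make up the 8 samples. There was thus no replicate of a genotype, no test was run, and genotype, batch and mice cannot be told apart in any comparison with wt. Rule-negative and rule-positive nuclei come from the same library, but nuclei are not replicates, so all ratios here are values of these libraries. Intervals are exact 95% intervals that cover counting error only.

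PRC2 sets methyl groups on lysine 27 of histone H3, and genes that carry this mark stay silent. Eed is the subunit that reads the mark and is needed for the activity of the complex, so in cells that lose Eed the mark is thought to fade as it is diluted or removed. Its classic targets are regulators of the embryo: Hox genes, which set position along the hindbrain and spinal cord, and factors of the Pax, Tbx, Gata, Lhx and Onecut families. Dopamine neurons of the midbrain fall into nigral types, marked by Sox6, which project to the dorsal striatum, and tegmental types, marked by Otx2 and Calb1, which project to the ventral striatum and cortex.

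The bases before the start of 3 genes are shown because the genes stand for the 3 patterns reported here: Hoxc4 was chosen to be absent from the rule-negative nuclei, Tbx20 was lower in them than in rule-positive nuclei but not absent, and Sfmbt2 was raised in them nearly as far as in rule-positive nuclei. PRC2 targets often lie in stretches rich in CG dinucleotides, which are in capitals. Each run holds the 250 bases before the RefSeq start, 5′ to 3′ on the gene's strand, in build GRCm38.p6.
Hoxc4, chr15:103034145-103034394, plus strand: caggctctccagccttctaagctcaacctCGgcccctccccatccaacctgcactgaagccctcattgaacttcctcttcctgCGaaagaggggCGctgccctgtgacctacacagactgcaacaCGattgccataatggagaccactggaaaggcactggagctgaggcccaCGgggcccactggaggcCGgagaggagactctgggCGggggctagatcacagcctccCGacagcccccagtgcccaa
Tbx20, chr9:24774304-24774553, minus strand: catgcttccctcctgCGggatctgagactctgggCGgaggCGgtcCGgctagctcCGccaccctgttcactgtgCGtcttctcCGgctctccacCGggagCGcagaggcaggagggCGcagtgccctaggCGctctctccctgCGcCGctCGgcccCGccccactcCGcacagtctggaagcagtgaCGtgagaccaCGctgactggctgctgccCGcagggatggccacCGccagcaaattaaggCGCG
Sfmbt2, chr2:10372186-10372435, plus strand: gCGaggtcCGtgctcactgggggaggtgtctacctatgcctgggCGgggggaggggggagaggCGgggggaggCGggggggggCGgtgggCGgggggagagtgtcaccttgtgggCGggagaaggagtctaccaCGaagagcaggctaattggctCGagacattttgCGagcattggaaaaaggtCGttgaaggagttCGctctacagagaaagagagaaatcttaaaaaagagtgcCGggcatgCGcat
The letters CG occurred 8 times before Hoxc4, 22 times before Tbx20 and 15 times before Sfmbt2, against a median of 6 over all 32851 RefSeq windows of this length. As many or more were held by 43.0%, 14.8% and 27.3% of these windows, in the same order. The Hoxc4 start lies inside the longer annotated gene (chromosome 15, 103018934 to 103036852, plus strand), and the Sfmbt2 start is the second of its 2 entries. These counts describe the letters; no binding or histone mark was measured here.

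Rule-negative nuclei were shallower than the nuclei they were compared with. Their depth ran from 12013 to 80078 UMIs with a median of 17179, against medians of 25644.5 for rule-positive and 27794 for wt nuclei; median genes per nucleus were 4751, 5820 and 5884. Together they held 7718463 UMIs, against 55131557 and 37722532, so 1 UMI in the summed rule-negative nuclei was 0.130 CPM (UMIs of a gene per 1000000 UMIs of its group). A shallow nucleus shows 0 UMIs of a gene more easily. Of mutant nuclei within the limits, 38.3% with 12000 to 16000 UMIs were rule-negative, 21.7% with 16000 to 24000 and 7.71% with 24000 or more. When every nucleus was thinned at random to 12000 UMIs and the rule read again, the shares were 39.6% (34.8 to 44.5%), 26.8% (23.4 to 30.3%) and 12.6% (10.7 to 14.7%). Deeper nuclei were thus rule-negative less often at equal counted depth too, in these libraries. The share of nuclei leaning to the tegmental type, defined further on, was 58.7%, 48.1% and 40.2% in the same classes, and its part in the depth pattern was not tested.

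The rule genes had 0 UMIs in the rule-negative nuclei by choice. In rule-positive nuclei Hoxc4 had 139.9 CPM, Hoxc5 125 CPM, Pax3 117 CPM, Hoxb3 59.0 CPM and Hoxb6 53.1 CPM. Against a floor of 3 counts over the rule-negative nuclei the rule-negative levels were at least 359.9-fold, 320.3-fold, 301-fold, 152-fold and 137-fold lower. Hoxc4 and Hoxc5 overlap other genes of their cluster, so the split of tags among them is uncertain. The 148 mutant nuclei with exactly 1 UMI of a rule gene, just outside the rule, had 703 CPM summed over the regulators silent in wt that are described below, 39.1 CPM of Eed and 182 CPM of Onecut2, against 464, 36.1 and 142 CPM at 0 rule UMIs. Members with 12000 to 13000 UMIs (52 nuclei) and rule-free mutant nuclei just under the depth limit, at 11000 to 12000 UMIs (44 nuclei), each had 513 CPM of these regulators. Members with 5 to 7 dopamine gene UMIs per 10000 (48 nuclei) had 301 CPM and nuclei just under that limit, at 3 to 5 (70 nuclei), 297 CPM.

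Eed (chromosome 7, 89954654 to 89980983, minus strand) is the gene named in the strain. Summed over the nuclei of a group, its level was 36.1 CPM (32.0 to 40.6) in rule-negative, 42.4 CPM in rule-positive and 21.3 CPM in wt nuclei. Rule-negative nuclei had 0.852 times (0.7495 to 0.965) the rule-positive level and 1.70 times (1.48 to 1.95) the wt level. In nuclei with at least 20000 UMIs these ratios were 0.659 and 1.34, so which of the other groups the level lay nearer to turned with the depth limit, while it lay above wt in both. The tags come from the 3' end, and the sources used here do not give which part of Eed is deleted. The level therefore checks neither the genotype label nor whether a nucleus lost the gene.

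The other subunit genes of PRC2 lay close together in the groups. Ezh2, the methyltransferase, had 28.2, 22.3 and 20.2 CPM in rule-negative, rule-positive and wt nuclei, the order in which 3 values are given from here on. Another core gene, Suz12, stood at 72.6, 72.5 and 57.7 CPM. Of 10 PRC2 genes measured (at least 50 UMIs over both groups), 0 were at least 1.5-fold higher and 0 lower in rule-negative than in rule-positive nuclei, and 1, Eed, was higher than in wt. These counts use a pseudocount of 5 CPM. Of all 15032 genes measured against rule-positive nuclei, 2.64% were 1.5-fold higher and 2.3% lower, and of 14198 measured against wt, 3.37% were higher and 2.61% lower. Among genes of PRC1, which binds the mark, and of the demethylases that remove it, 1 of 20 was lower than in rule-positive nuclei, the PRC1 subunit gene Pcgf1 (4.41, 10.8 and 3.18 CPM). Against wt 3 of 19 were higher, among them the PRC1 genes Pcgf5 (95.4, 94.2 and 53.8 CPM) and Bmi1 (11.8, 11.0 and 6.04 CPM).

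Silent regulators, 221 transcription factor genes that pattern the embryo and had under 2 CPM in wt dopamine nuclei, stood between the other groups in the rule-negative nuclei. Their summed level was 464, 1439.9 and 44.8 CPM. Rule-negative nuclei were 3.101-fold (2.999 to 3.21) lower than rule-positive nuclei and 10.4-fold (9.77 to 11.0) higher than wt. The list leaves out the rule genes, but it was drawn from genes low in wt, so its direction against wt is partly fixed by that choice, and against rule-positive nuclei it was chosen with earlier results known. Of the 221, 148 were measured against rule-positive nuclei, and of these 0 were at least 1.5-fold higher and 63 lower, with a median log2 ratio of -0.49 beside -0.02 over all genes. Against wt 35 of the 221 were measured, and 29 were higher and 0 lower; a gene near 0 in a group reached the minimum of 50 UMIs only through the other group, so these counts describe the list and support nothing. The nuclei with under 0.5 dopamine gene UMIs per 10000, which include neurons of other kinds, also made these genes: their sum was 259.6 CPM in 255 mutant and 208 CPM in 70 wt nuclei. The part of admixed RNA of such neurons in the rule-negative level was not tested.

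Nucleus by nucleus, at 12000 UMIs each, rule-negative nuclei had a median of 5 silent regulator UMIs with a lowest of 0 and a highest of 28. The medians were 18 in rule-positive nuclei, which reached 45, and 0 in wt nuclei, which reached 8. No UMI was found in 38 rule-negative nuclei (9.87%, 7.08 to 13.3%), in 1 rule-positive nucleus and in 722 wt nuclei (66.1%). The 95th percentile of wt nuclei was 2 UMIs, and 252 rule-negative nuclei (65.5%, 60.5 to 70.2%) lay above it, as did 98.7% of rule-positive nuclei. Above the highest wt nucleus lay 103 rule-negative (26.8%) and 1550 rule-positive nuclei (88.1%). The 255 mutant and 70 wt nuclei with almost no dopamine gene RNA, described above, were read the same way. Above the 95th percentile lay 46.7% of these mutant and 44.3% of these wt nuclei. Above the highest wt dopamine nucleus lay 8.24% and 4.29%, and 12.2% and 12.9% had no UMI. The part of RNA of other neurons in the rule-negative counts was not tested. The rule-negative nuclei overlapped the rule-positive and the wt dopamine nuclei, as the plot of silent regulator UMIs per nucleus shows.

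**Figure D1:**
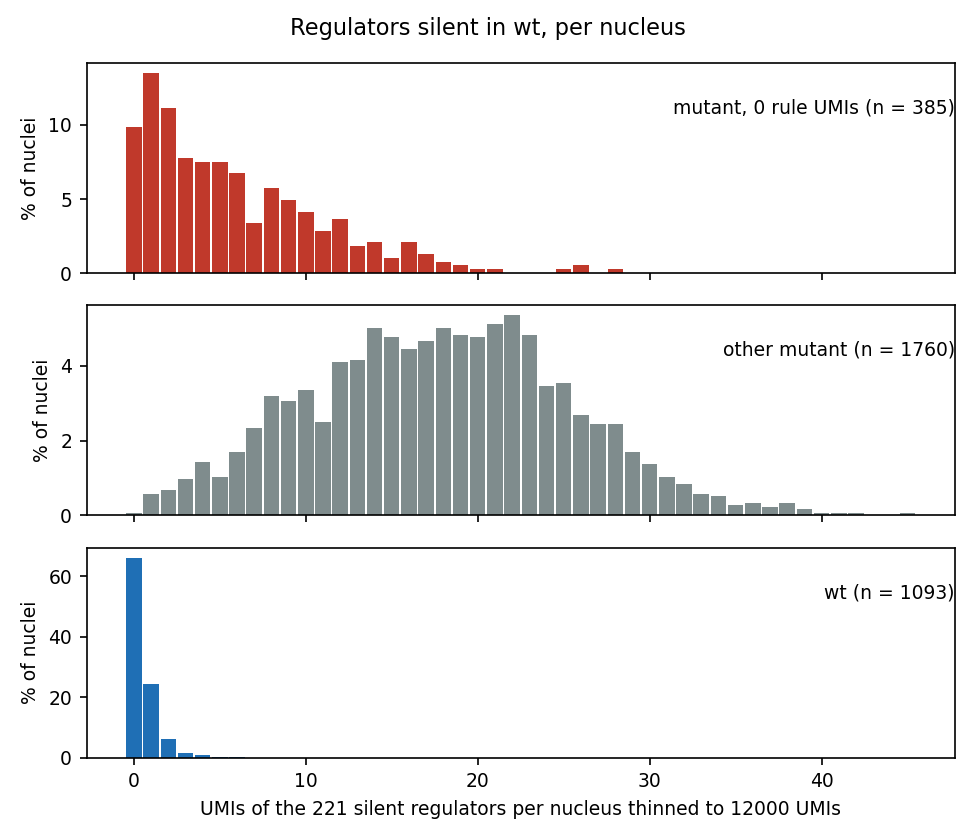
Share of nuclei (vertical axis, percent) by the number of UMIs of the 221 silent regulators in a nucleus thinned to 12000 UMIs (horizontal axis), for rule-negative, rule-positive and wt nuclei. The rule-negative nuclei, with a median of 5, spread between the wt nuclei, with a median of 0, and the rule-positive nuclei, with a median of 18.

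Hox genes outside the rule were far below the rule-positive level. Their 27 members summed to 30.2, 239.5 and 0.0530 CPM, 7.93-fold (6.97 to 9.07) lower in rule-negative than in rule-positive nuclei, and 15 of 22 measured were lower and 0 higher. Genes near 0 in rule-negative nuclei passed the minimum of 50 UMIs only through the rule-positive nuclei. This count therefore describes the genes that passed and supports no direction. Hoxd11, a gene of the posterior end of the HoxD cluster, had 1.94, 50.3 and 0.0265 CPM; Hoxb4 had 1.30, 19.3 and 0 CPM and Hoxd10 2.46, 23.7 and 0 CPM. Hoxa7, the highest of these genes named here, still had 6.61 CPM in rule-negative nuclei, 18.5 CPM in rule-positive nuclei and 0 UMIs in wt, at least 83.1-fold higher than wt against a floor of 3 counts over the wt nuclei. It was the 1 Hox gene measured against wt. Neighbours in a Hox cluster are often active together, and the rule chose nuclei without 4 of them.

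Of 111 other homeobox genes 82 were measured, of which 26 were lower and 3 higher in rule-negative than in rule-positive nuclei, and 53 lay within 1.5-fold. The lower members included Pax2, a factor of the mid-hindbrain border and spinal interneurons (10.2, 60.04 and 0.239 CPM), Pax6, a factor of forebrain and eye (13.3, 54.0 and 2.86 CPM), Isl1, a factor of motor neurons (1.04, 13.9 and 0.610 CPM), Pax9 (1.17, 13.4 and 0 CPM) and Pax1 (5.70, 26.7 and 1.11 CPM). The higher members included Otx1 (7.64, 3.07 and 4.56 CPM) and Uncx (13.1, 6.58 and 18.3 CPM), both of which wt dopamine nuclei also made. Against wt 18 of 27 were higher and 0 lower. Genes near 0 in wt passed the minimum of 50 UMIs only through the rule-negative nuclei, so here and in the lists that follow a count against wt describes the genes that passed and supports no direction. Genes near 0 in rule-negative nuclei passed against rule-positive nuclei only through the latter, so the same holds for those counts. Lhx2, a forebrain factor, had 18.4, 30.2 and 0.477 CPM, 38.6-fold (23.5 to 66.9) over wt; Shox2 had 12.6, 18.7 and 0.345 CPM and Lhx9 12.7, 15.5 and 1.06 CPM.

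Of 104 regulators without a homeobox 65 were measured, of which 27 were lower and 3 higher than in rule-positive nuclei. Tbx15, a T-box factor of the skeleton and skin, had 8.29, 74.3 and 1.48 CPM, 8.96-fold (7.005 to 11.7) lower. Gata4, a factor of heart and endoderm, had 7.77, 60.04 and 0.451 CPM, 7.72-fold (5.98 to 10.1) lower. Tbx5, a factor of the heart and forelimb, had 4.66 and 39.5 CPM and 0 UMIs in wt. Tfap2b (1.30, 21.8 and 0.265 CPM) and Sim2 (8.94, 45.3 and 0.292 CPM) were lower as well. The 3 higher members, Prdm8 (13.7, 5.39 and 5.01 CPM), Twist2 (19.8, 9.60 and 11.3 CPM) and Nhlh2 (4.53, 1.32 and 2.36 CPM), all had at least 2 CPM in wt.

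The regulators of this class with the highest ratios to wt had almost no UMIs in wt nuclei. Against wt 28 were measured, 19 of them higher and 0 lower, a split that the minimum of 50 UMIs largely fixes, as such genes passed it through the rule-negative nuclei. Prdm6 had 22.5, 42.6 and 0.795 CPM, and Tbx20, a heart factor whose start is shown above, had 14.1, 36.6 and 0.0795 CPM. Tbx1, a pharyngeal arch factor, had 13.1, 12.2 and 0.159 CPM, about the same in both mutant groups, 1.07 times (0.862 to 1.33) the rule-positive level. Foxd1 had 10.5, 22.6 and 0.318 CPM. Gata6 had 9.33 and 12.6 CPM and 0 UMIs in wt, at least 117-fold higher than wt. The 5 highest silent regulators of rule-negative nuclei were Prdm6, Lhx2, Tbx20, Tbx1 and Lhx9. With every nucleus thinned to 12000 UMIs, Tbx20 was seen in 12.5% of rule-negative, 30.9% of rule-positive and 0.0915% of wt nuclei (unthinned 16.1%, 49.0% and 0.183%). In mutant nuclei with under 0.5 dopamine gene UMIs per 10000, of median depth 25421 UMIs, the thinned share was 2.75%.

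For some genes the rule-negative level lay near the rule-positive one, and 5 such genes, picked with their values known, are given here. Onecut2 (chromosome 18, 64340020 to 64400987, plus strand), a homeobox factor of early neurons, had 142, 176 and 11.9 CPM. Its rule-negative level was 0.810 times (0.760 to 0.862) the rule-positive level and 11.99-fold (10.7 to 13.4) higher than wt. Ccnd2, cyclin D2, which drives the entry into the cell cycle, had 69.6, 68.0 and 5.65 CPM, 12.3-fold (10.5 to 14.5) over wt. Sfmbt2 (chromosome 2, 10370510 to 10595253, plus strand), which encodes a Polycomb protein that binds methylated histones, had 174, 229 and 35.0 CPM, 4.97-fold (4.60 to 5.36) over wt. Spag6, a gene of the sperm tail, had 20.7, 22.0 and 0.212 CPM, and Skor2, a corepressor gene of Purkinje cells, had 14.5 and 19.3 CPM and 0 UMIs in wt, at least 182-fold higher than wt. Other genes far above wt did not share this. Among the 8 genes outside the lists that lay furthest above wt, which include Ccnd2, Sfmbt2, Spag6 and Skor2, the rule-negative level of Emx2os was 0.348 times (0.293 to 0.410) and that of Dlx6os1 0.379 times (0.319 to 0.447) the rule-positive level, near the 0.322 of the silent regulators.

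Onecut2, Ccnd2 and Sfmbt2 were also seen in nuclei with almost no dopamine gene RNA. At 12000 UMIs Onecut2 was seen in 75.1% of rule-negative (70.4 to 79.3%), 85.2% of rule-positive and 8.60% of wt nuclei. Ccnd2 was seen in 48.6%, 49.7% and 4.94%, and Sfmbt2 in 78.2%, 88.8% and 25.2%. In nuclei with under 0.5 dopamine gene UMIs per 10000, also at 12000 UMIs, Onecut2 was seen in 27.5% of 255 mutant and 31.4% of 70 wt nuclei, Ccnd2 in 23.5% and 10% and Sfmbt2 in 43.9% and 52.9%. These shares lay below the rule-negative ones, and those of wt lay above the wt dopamine nuclei; the part of RNA of such neurons in the rule-negative shares was not tested. Without thinning the rule-negative shares were 84.2%, 58.7% and 84.9%. As a guide to free RNA, 23 mutant nuclei with at least 100 oligodendrocyte marker UMIs per 10000 were used. They had a median depth of 4832 UMIs and were read at 2000 UMIs per nucleus. There Sfmbt2 had 0 of 23, which allows up to 13.0%, against 29.6% of rule-negative nuclei at that depth. Onecut2 had 4 of 23 (17.4%, 4.95 to 38.8%) against 26.0%, and Ccnd2 had 1 of 23 (4.35%, 0.110 to 21.9%) against 12.7%. For Onecut2 and Ccnd2 the interval of this background covers the rule-negative share, so with 23 nuclei it does not lie clearly below it. In 26 wt nuclei chosen the same way Onecut2 had 2 (7.69%, 0.946 to 25.1%), against 1.92% of wt dopamine nuclei at that depth. Free RNA and RNA made by the marked nuclei themselves were not told apart.

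**Figure D2:**
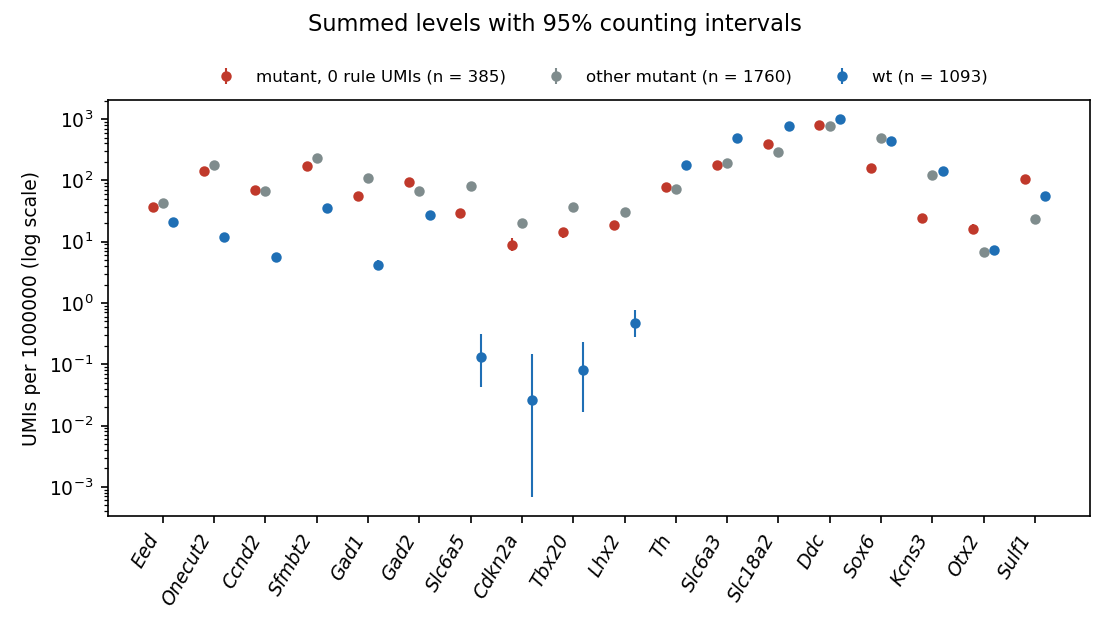
Summed level of the genes named on the horizontal axis (vertical axis, UMIs per 1000000, log scale) in rule-negative, rule-positive and wt nuclei; points are levels and bars 95% counting intervals. For Onecut2, Ccnd2 and Sfmbt2 the rule-negative level lies near the rule-positive one, for Gad1, Slc6a5, Tbx20 and Lhx2 it lies between that and wt, and for Sox6 and Kcns3 it lies below both.

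Of 8 genes of other transmitters measured against wt, 6 were higher in rule-negative nuclei and 0 lower. Gad1, which makes GABA, had 55.8, 109 and 4.24 CPM. Its rule-negative level was 0.510 times (0.462 to 0.563) the rule-positive level and 13.2-fold (11.0 to 15.9) over wt. Slc6a5, the glycine transporter of inhibitory neurons, had 29.2, 82.3 and 0.133 CPM, and Slc32a1, the vesicular GABA and glycine transporter, had 4.66, 6.55 and 1.246 CPM. Gad2, the other GABA enzyme, had 94.97, 67.9 and 27.6 CPM, 1.40 times (1.29 to 1.52) the rule-positive level, which is within 1.5-fold. At 12000 UMIs it was seen in a smaller share of rule-negative nuclei, 34.0% (29.3 to 39.0%), than of rule-positive ones, 43.6% (41.2 to 45.9%). At full depth 32 rule-negative nuclei (8.31%) held 5 or more Gad2 UMIs and 0 of Gad1, against 21 rule-positive nuclei (1.19%) and 53 wt nuclei (4.85%). Slc17a6, the vesicular glutamate transporter of midbrain neurons, had 64.9, 26.6 and 24.1 CPM and stands in the tegmental list below. Tph2, the enzyme of serotonin synthesis, had 5.70 CPM, but 41 of its 44 UMIs (93.2%) lay in 1 nucleus. Of 9 genes measured, 2 were higher than in rule-positive nuclei, Slc17a6 and Tph2, and 2 lower, Gad1 and Slc6a5. In low-dopamine mutant nuclei, which include neurons of other kinds, Gad1 had 73.9 and Gad2 136 CPM, and the part of such neurons in the rule-negative levels was not tested.

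The dopamine genes that set the limits are described here without support for any likeness, as they chose the nuclei; 3 of the 4 were at least 1.5-fold lower than in wt. Th, tyrosine hydroxylase, had 79.4, 71.6 and 179 CPM, 0.445 times (0.409 to 0.483) the wt level. Slc6a3, the dopamine transporter, had 175, 191 and 498 CPM, 0.352 times (0.333 to 0.372), and Slc18a2, the vesicular monoamine transporter, had 386, 291 and 785 CPM, 0.492 times (0.474 to 0.511). Ddc, the next enzyme after Th, had 802, 779.9 and 1009 CPM, 0.795 times (0.774 to 0.817). All groups had to pass the same limit on the sum of these genes, so the ratios describe nuclei above it. The sum was 1443, 1333 and 2471 CPM. Against rule-positive nuclei 0 of 4 lay outside 1.5-fold, which the shared limit partly fixes. Neither Th nor Slc6a3 had a UMI in 51 rule-negative nuclei (13.2%), against 3.47% of rule-positive and 2.38% of wt nuclei, which are deeper; at 12000 UMIs Th was seen in 56.6%, 58.2% and 81.6%. For Slc6a3 a gap to rule-positive nuclei was also present at 12000 UMIs, with 61.0% (56.0 to 65.9%), 76.9% (74.9 to 78.9%) and 89.4% (87.4 to 91.2%). At 2000 UMIs Th was seen in 13.0% of rule-negative nuclei and in 0 of the 23 oligodendrocyte-marked mutant nuclei, which allows up to 13.0%. Slc6a3 and Slc18a2 were also seen in 0 of the 23. Ddc was seen in 5 of them (21.7%, 7.46 to 43.7%), against 75.3% of rule-negative nuclei, so this background was not free of dopamine gene RNA.

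Further genes of dopamine synthesis, breakdown and feedback summed to 509, 537 and 770 CPM, 0.948 times (0.917 to 0.980) the rule-positive and 0.661 times (0.639 to 0.684) the wt level. The ratio to rule-positive nuclei turned above 1 with a dopamine limit of 10 per 10000 (1.06), in male nuclei (1.04), in tegmental-leaning nuclei (1.10) and in nigral-leaning nuclei (1.26). In rule-negative nuclei Aldh1a1 held 1352 and Drd2 967 of the 3929 UMIs of this list, so its sum there rests largely on them. Against rule-positive nuclei Aldh1a1 was higher and Drd2 lower, so the ratio of the sums does not describe the single genes. Of 14 measured, 2 were higher and 2 lower than in rule-positive nuclei, and 0 were higher and 4 lower than in wt. Drd2, the dopamine autoreceptor, had 125, 247 and 313 CPM and was lower than in both other groups. Aldh1a1, an aldehyde dehydrogenase of ventral dopamine neurons, had 175, 82.3 and 189 CPM, near wt and 2.13-fold (2.00 to 2.26) above rule-positive nuclei. Gch1, which makes the cofactor of Th, had 12.7, 18.5 and 34.8 CPM, low in mutant nuclei of either kind. Maob, which breaks dopamine down, had 11.3, 5.24 and 7.93 CPM and Aldh1a7 0.777, 4.26 and 9.62 CPM.

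Transcription factors of the dopamine neuron were higher in rule-negative than in rule-positive nuclei in 5 of 12 cases and lower in 0. Pitx3, which activates Th, had 10.5, 5.22 and 18.0 CPM, and En1, on which the survival of dopamine neurons depends, stood at 42.8, 26.1 and 75.5 CPM; both lay between the rule-positive and the wt level. Lmx1a had 148, 89.9 and 113 CPM and En2 33.0, 19.7 and 27.8 CPM. Otx2, the tegmental factor, had 16.1, 6.73 and 7.396 CPM, 2.39-fold (1.93 to 2.93) over rule-positive nuclei. Against wt 1 was higher (Otx2) and 1 lower (En1). Nr4a2, which activates Th and Slc6a3, had 123, 87.6 and 116 CPM, 1.07 times (0.994 to 1.15) the wt level.

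Rule-negative nuclei had less RNA of nigral and more of tegmental subtype genes than either other group. Nigral subtype genes summed to 724, 1330.2 and 1548 CPM and were 1.84-fold (1.79 to 1.89) lower than in rule-positive and 2.14-fold (2.08 to 2.20) lower than in wt nuclei. Sox6 had 159.7, 499 and 437 CPM, Kcns3, a potassium channel subunit gene, 24.2, 123 and 145 CPM, Ndnf 8.16, 33.9 and 82.6 CPM and Satb1 125, 231 and 244 CPM. Of 12 measured, 6 were lower and 2 higher than in rule-positive nuclei, and 8 lower and 0 higher than in wt. The higher ones were Aldh1a1, given above, and Anxa1 (8.94, 3.25 and 14.7 CPM).

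Tegmental subtype genes summed to 1065, 452 and 637 CPM, 2.35-fold (2.30 to 2.41) higher than in rule-positive and 1.67-fold (1.63 to 1.72) higher than in wt nuclei. In rule-negative nuclei Sorcs3 alone held 5056 of the 8222 UMIs of this list, so the sums rest largely on it. Of 15 measured, 10 were higher than in rule-positive and 8 higher than in wt nuclei, and 0 were lower. Calb1, calbindin, had 107, 43.7 and 79.5 CPM, Eya1 57.4, 16.1 and 14.6 CPM, Neurod6, a factor of a tegmental subtype, 9.72, 2.58 and 1.94 CPM, and Slc17a6 64.9, 26.6 and 24.1 CPM. A list of further subtype genes gave 1159, 499 and 735 CPM, with 11 of 15 higher than in rule-positive and 5 higher than in wt nuclei. Among them Sulf1, which edits heparan sulfate, had 105, 23.5 and 55.6 CPM, Sema5b, an axon guidance gene, 117, 37.3 and 78.3 CPM, Npsr1, the neuropeptide S receptor gene, 30.8, 9.16 and 25.1 CPM, and Htr2c, a serotonin receptor gene, 357, 155 and 223 CPM. Htr2c held 2759 of the 8942 UMIs of the further list in rule-negative nuclei.

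A nucleus was called tegmental-leaning where it had more UMIs of the tegmental and further lists together than of the nigral list, and nigral-leaning otherwise. This is a split of a range, not a cell type, and 19 rule-negative nuclei (4.94%) lay near its limit, with a ratio of these UMIs between 0.8 and its inverse. Abundant genes such as Sorcs3 and Htr2c weigh most in this split. Of rule-negative nuclei 330 (85.7%, 81.8 to 89.1%) were tegmental-leaning, against 662 rule-positive (37.6%, 35.3 to 39.9%) and 556 wt nuclei (50.9%, 47.9 to 53.9%). The lean is not particular to dopamine nuclei: of nuclei with under 0.5 dopamine gene UMIs per 10000, 243 of 255 mutant (95.3%) and 65 of 70 wt nuclei (92.9%) were tegmental-leaning by the same lists. The further list also moved with the dopamine limit, at 2443 CPM in rule-free mutant nuclei just under it and 1812 CPM in members just above it, against 1159 CPM in all members; the tegmental list had 1008, 975 and 1065 CPM. The part of RNA of other neurons in the lean was not tested. Read the other way, 33.3% of the 992 tegmental-leaning and 4.77% of the 1153 nigral-leaning mutant nuclei were rule-negative. At 12000 UMIs these shares were 40.0% and 6.85%. With 1 library per genotype the shares are those of the sorted nuclei, not of the tissue.

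**Figure D3:**
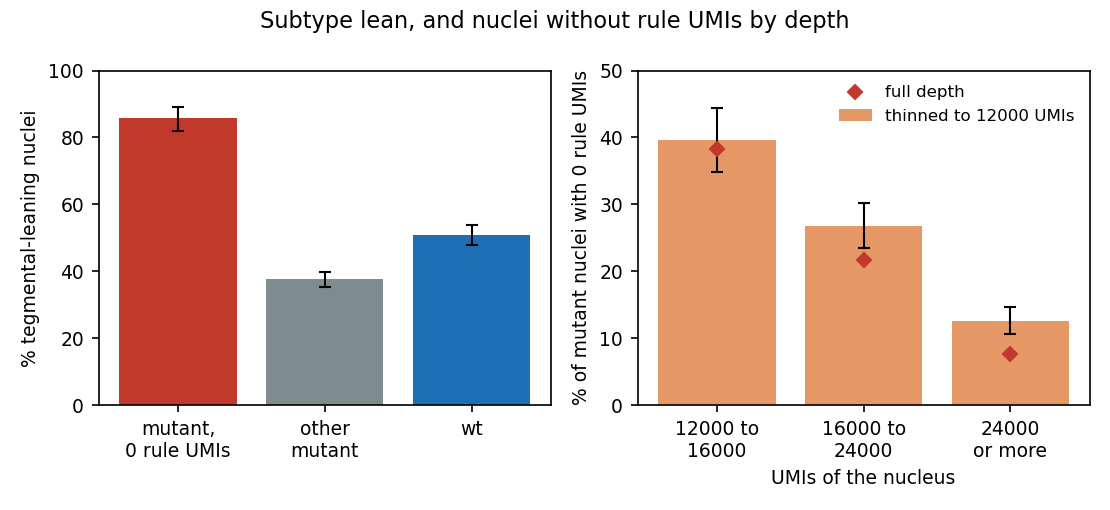
Left, share of tegmental-leaning nuclei (percent) among rule-negative, rule-positive and wt nuclei, with exact 95% intervals: 85.7%, 37.6% and 50.9%. Right, share of mutant nuclei within the limits with 0 rule UMIs (percent) by depth class, bars after thinning every nucleus to 12000 UMIs with exact 95% intervals and diamonds at full depth; both are lower in each deeper class.

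Within tegmental-leaning nuclei alone the subtype lists differed less, and the silent regulators still lay between the other groups. Here 330 rule-negative nuclei were set beside 662 rule-positive and 556 wt nuclei. Silent regulators had 441 against 1132 CPM in rule-negative against rule-positive nuclei, 0.390 times (0.375 to 0.405), and 8.08-fold (7.51 to 8.71) over wt. Eed was at 0.988 times (0.851 to 1.14) the rule-positive and 1.59 times (1.35 to 1.87) the wt level, so no difference in Eed between the mutant groups was detectable here. Onecut2 had 141 against 168 CPM and Gad1 was at 0.560 times (0.4998 to 0.627) the rule-positive level. The tegmental list was at 1.26 times, the further list at 1.37 times and the nigral list at 0.944 times the rule-positive level, and at 1.05, 1.01 and 0.855 times the wt level. These lists also made the split. Th stood at 0.462 times (0.419 to 0.508) and Slc6a3 at 0.491 times (0.458 to 0.526) the wt level, and Sox6 at 0.573 times (0.523 to 0.627) the rule-positive level.

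The 55 nigral-leaning rule-negative nuclei gave the same order with wider intervals. Their silent regulators were at 0.376 times (0.347 to 0.406) the level of 1098 nigral-leaning rule-positive nuclei and 16.7-fold (15.03 to 18.6) over 537 nigral-leaning wt nuclei. Eed was at 0.792 times (0.558 to 1.09) and 1.82 times (1.27 to 2.54), Onecut2 at 0.856 times (0.727 to 1.00) and 17.3-fold (13.9 to 21.5). Th was at 0.558 times (0.458 to 0.674) and Slc6a3 at 0.535 times (0.482 to 0.593) the nigral-leaning wt level.

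The number of rule gene UMIs per nucleus, read at 12000 UMIs, ordered the mutant nuclei. In nuclei with 0 (476 nuclei at this depth), 1 (207), 2 (178), 3 to 5 (429), 6 to 10 (567) and over 10 (288), silent regulators summed to 556, 888, 1085, 1361, 1657 and 1947 CPM. Rule genes and silent regulators share their nuclei, so this describes how they occur together. Some sums ran within a narrow range. Onecut2 had 149.7, 159, 179, 168, 181 and 189 CPM. The 4 dopamine genes together, on whose sum all classes passed the same limit, had 1392, 1375, 1292, 1333, 1322 and 1386 CPM. Others ran wider: Gad1 had 63.3, 80.5, 106, 103, 117 and 134 CPM. From the first to the last class Slc6a5 went from 32.1 to 118 CPM and Sfmbt2 from 185 to 266 CPM. Lmx1a went from 136 to 56.1 CPM and En1 from 41.7 to 20.5 CPM. Eed had 36.5, 44.7, 36.1, 38.4, 45.1 and 48.2 CPM. The share of tegmental-leaning nuclei was 83.4, 67.1, 62.9, 45.5, 21.0 and 10.4%, and the tegmental list ran from 1048 to 130.4 CPM while the nigral list ran from 767 to 1708 CPM.

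**Figure D4:**
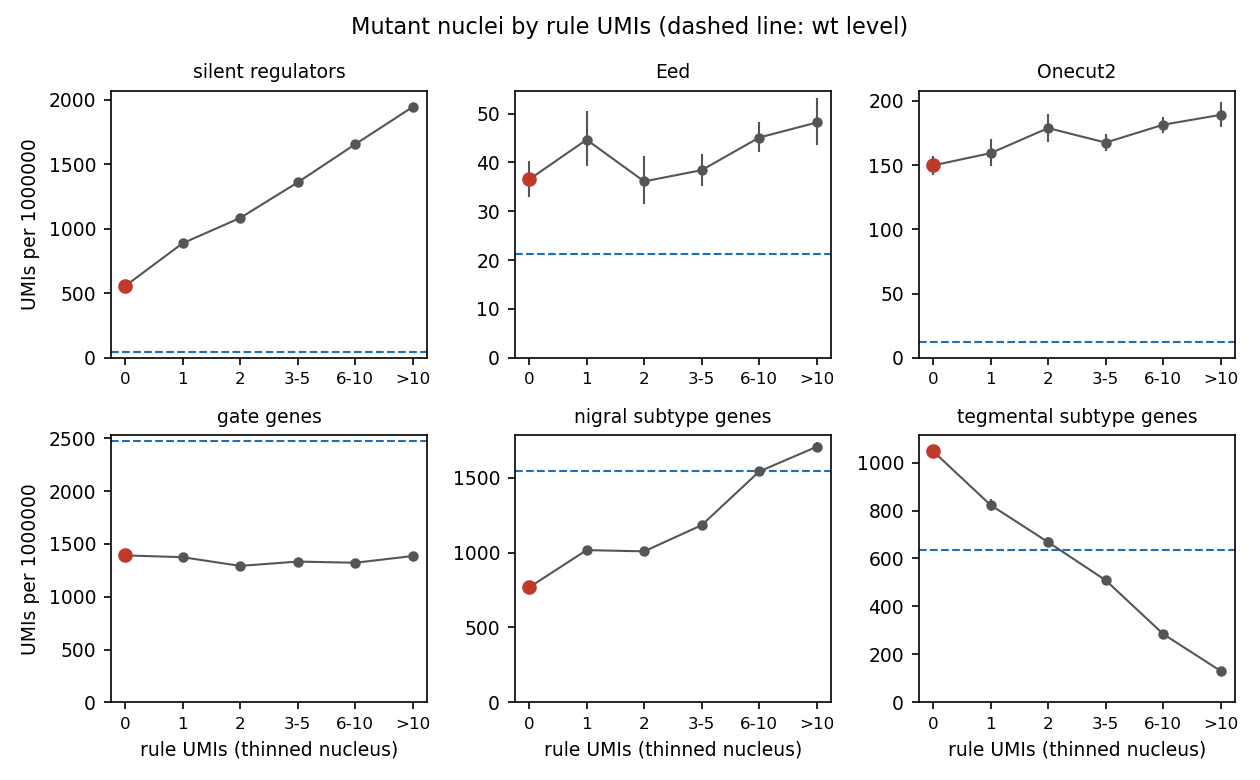
Summed level (vertical axis, UMIs per 1000000) of the silent regulators, Eed, Onecut2, the 4 dopamine genes of the limit (titled gate genes) and the nigral and tegmental lists in mutant nuclei grouped by UMIs of the rule genes after thinning to 12000 UMIs (horizontal axis); bars are 95% counting intervals, the red point is the class with 0 rule UMIs and the dashed line the wt level. Silent regulators are higher and tegmental genes lower in each further class, nigral genes run from 767 CPM in the first to 1708 CPM in the last, while the dopamine genes stay below the wt line in every class.

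Among themselves the rule-negative nuclei varied widely in silent regulators. At 12000 UMIs 133 had at most 2 silent regulator UMIs, the 95th percentile of wt, and 252 had more; 43 lay at 2 and 30 at 3, so the limit cuts through a continuous range. Low and high nuclei had 134 and 656 CPM of silent regulators, which the split fixes. Eed had 31.1 and 39.1 CPM in low and high nuclei, 0.794 times (0.610 to 1.03), Onecut2 92.5 and 171 CPM, Ccnd2 46.6 and 82.9 CPM and Sfmbt2 139 and 194 CPM. Gad1 had 18.0 and 77.8 CPM and Slc6a5 6.35 and 42.4 CPM, so both were lower in low nuclei. Gad2 had 144 and 66.3 CPM and Pitx3 15.5 and 7.57 CPM, both higher in low nuclei. Set against wt, in the 133 low nuclei Onecut2 was 7.79-fold (6.66 to 9.09), Ccnd2 8.25-fold (6.59 to 10.3), Sfmbt2 3.98-fold (3.54 to 4.45) and Eed 1.46-fold (1.16 to 1.82) higher. At full depth 17.3% of low, 11.1% of high and 2.38% of wt nuclei had no UMI of Th or Slc6a3. At least 5 Gad2 UMIs were held by 20.3%, 7.94% and 6.68%. The part of RNA of other neurons in these ratios was not tested. Of the low nuclei 92.5% were tegmental-leaning, and of the high nuclei 82.1%.

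Ion channels and receptors of dopamine neurons were mostly near or below the other groups. Of 15 measured 4 were lower and 0 higher than in rule-positive nuclei, and 6 lower and 1 higher than in wt. Kcnj6, the channel that dopamine autoreceptors open, had 389, 658 and 1071 CPM, and Kcnd3, a potassium channel of pacemaking, had 672, 1339 and 1199 CPM. Grin2c, a glutamate receptor subunit gene, had 5.70, 62.2 and 25.8 CPM, 10.9-fold (8.11 to 15.04) lower than rule-positive.

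Genes induced by activity summed to 139, 84.7 and 44.6 CPM, with 2 of 9 higher than in rule-positive nuclei and 4 of 7 higher than in wt, and 0 lower. Nr4a3, a nuclear receptor gene, led with 50.4, 24.0 and 3.79 CPM and was seen in 69 rule-negative nuclei, of which 1 held 13.4% of its UMIs. Nr4a1 had 31.1, 26.3 and 9.86 CPM. Fos had 13.3, 5.73 and 4.21 CPM and Npas4 13.1, 8.91 and 5.14 CPM, with 22.3% and 18.8% of their UMIs in 1 nucleus. In nuclei with Xist and no Y-linked UMI the activity genes summed to 153, 82.2 and 44.7 CPM. With 2 or more Y-linked and 1 or fewer Xist UMIs the sums were 56.2 (29.9 to 96.1), 65.1 and 35.6 CPM. There 13 rule-negative nuclei held 1 UMI of Nr4a3. The part of single mice was not tested. Cell cycle inhibitors showed 2 of 13 lower than in rule-positive nuclei, Cdkn2a (8.94, 20.4 and 0.0265 CPM) and Cdkn2b (1.43, 5.31 and 0.0265 CPM), neighbours that Polycomb silences in many cells. Cdkn2a had 1 UMI in wt, and its ratio to wt was 337 (58.5 to 13510.3); it was the 1 of 10 higher than wt.

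Over all genes, 106 of 15032 were at least 2-fold higher (0.705%) and 105 lower (0.699%) in rule-negative than in rule-positive nuclei. Outside the lists the furthest higher genes included Chrm2, a muscarinic receptor gene (137, 38.3 and 37.3 CPM), Cdh6, a cadherin gene (81.0, 23.4 and 38.6 CPM), Piezo2, a mechanosensitive channel gene (20.0, 3.25 and 4.96 CPM), Pde1a (621, 208 and 336 CPM), Cntnap3 (65.6, 18.8 and 17.1 CPM) and Casr, the calcium sensor gene (29.0, 6.86 and 15.5 CPM). The furthest lower genes included Col25a1, a membrane collagen gene (163, 995 and 1095 CPM), Epha4, an axon guidance receptor gene (46.3, 163 and 164 CPM) and Gab1 (20.0, 64.9 and 48.6 CPM). Vax2os (9.20, 89.2 and 0.159 CPM), Wt1os (4.02, 31.5 and 0.106 CPM), Hotairm1 (1.17, 14.9 and 0.133 CPM) and Tbx3os1 (2.85, 19.9 and 1.246 CPM), RNAs named after a neighbouring developmental gene or Hox cluster, were lower as well; the counting strand is not stated, so their tags cannot be told from those of a partner on the other strand. Within tegmental-leaning nuclei 10 genes were 2-fold higher and 50 lower, against 106 and 105 in all nuclei. That comparison has fewer nuclei and UMIs, and its number of genes measured is not given here. The counts are thus not like for like.

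Against wt, 133 of 14198 genes were at least 2-fold higher (0.937%) and 109 lower (0.768%). Outside the lists the furthest higher genes were Ccnd2, Sfmbt2, Spag6 and Skor2, given above, with Emx2os (19.2, 55.2 and 0.848 CPM), Dlx6os1 (19.2, 50.6 and 1.56 CPM), Chrm2 and Pde1c (173, 93.8 and 43.5 CPM). Transcripts without a gene name of their own, picked after their values were seen, were high in rule-negative nuclei as well: 1700018A04Rik had 54.8, 111 and 0.239 CPM, 0.493 times (0.446 to 0.545) the rule-positive level, and Gm12688 had 43.7 and 73.3 CPM with 0 UMIs in wt, at least 549-fold higher. The counting strand bears on Emx2os and Dlx6os1 too. The furthest lower genes were Col25a1, Adamtsl1 (250.1, 203 and 875 CPM), Pex5l, a regulator of pacemaker channels (367, 1015 and 1585 CPM), Lix1 (53.2, 120.3 and 240.2 CPM), Tll1, a protease gene (95.7, 149.8 and 405 CPM), Nwd2 (203, 391 and 717 CPM), Tmem232 (6.48, 13.8 and 39.8 CPM) and Fam129a (1.04, 1.94 and 15.3 CPM). Within tegmental-leaning nuclei, with fewer UMIs, 66 genes were 2-fold higher and 40 lower than in wt, counts that are not like for like with those of all nuclei.

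**Figure D5:**
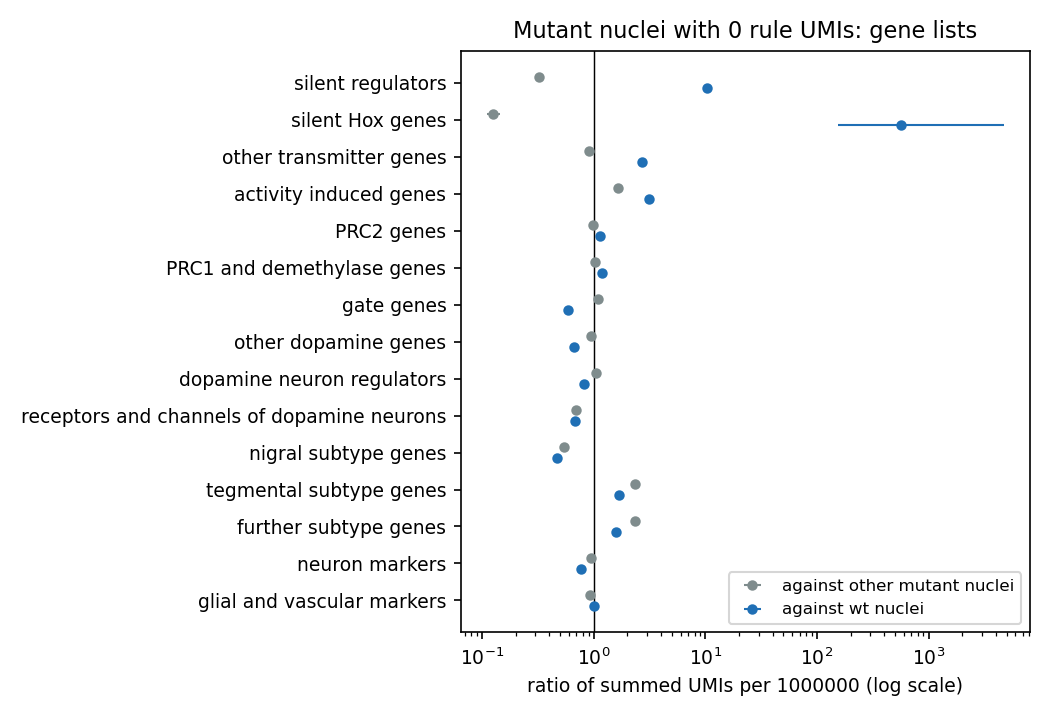
Ratio of summed CPM (horizontal axis, log scale) of gene lists in rule-negative against rule-positive and against wt nuclei, with 95% counting intervals; gate genes are the 4 dopamine genes of the limit. Silent regulators lie below 1 against rule-positive and above 1 against wt nuclei, and the tegmental and further subtype lists lie above 1 against both.

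Other cell types and sex were checked in the same nuclei. Glial and vascular markers summed to 476, 516 and 478 CPM; of 24 measured 0 lay outside 1.5-fold of the rule-positive level, and against wt 1 of 23 did, Aqp4, which was lower. C1qa of microglia and Ly6c1 of vessels were at 0 in rule-negative nuclei, and the summed levels of oligodendrocyte, astrocyte, microglia and vascular markers were 152, 267, 46.4 and 10.6 CPM there. Markers of neurons in general had 5353, 5719 and 6894 CPM. Nuclei of the female type by Xist and Y-linked UMIs were 81.6% of rule-negative, 68.4% of rule-positive and 56.5% of wt nuclei. Rule-negative nuclei were 20.7% of the female-type and 14.3% (7.83 to 23.2%, 13 of 91) of the male-type mutant nuclei. Nuclei with at least 10 Xist and 3 Y-linked UMIs, a sign of 2 nuclei in 1 droplet, numbered 9 of 385, 147 of 1760 and 104 of 1093. The sex markers were read without thinning, and in female-type nuclei alone silent regulators were at 0.311 times the rule-positive level and 12.6-fold over wt. The 2 libraries shared 4 cell barcodes, 0 of them in rule-negative nuclei.

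Neighbours by overall expression placed rule-negative nuclei nearer to wt than rule-positive nuclei were. Each nucleus within the limits was thinned to 12000 UMIs, and its 15 nearest nuclei were found by correlation over 1000 variable genes, with the rule genes and all listed regulators left out. On average 30.9% of the neighbours of a rule-negative nucleus were wt, 40.3% rule-positive and 28.8% rule-negative, where these groups made up 33.8%, 54.4% and 11.9% of the nuclei. Rule-positive nuclei had 8.74% wt neighbours and wt nuclei 80.5%. Among tegmental-leaning nuclei the wt shares were 31.9% for rule-negative, 15.8% for rule-positive and 67.1% for wt nuclei. Rule-negative nuclei with at most 2 silent regulator UMIs had 35.3% and those with more 28.6% wt neighbours.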

How the data were processed

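UMI counts, as deposited by the authors, fill 1 table of 23481 genes by 5740 nuclei and were not normalised. Per the submitters' processing notes, Cell Ranger 3.1.0 and mm10 were used, in roles the notes do not give, and no source here tells how nuclei were filtered. Column names start with WT or KO, which gave the genotype of each nucleus, and lanes were pooled. Gene positions are from GENCODE M21 (GRCm38) by symbol, and 98.2% of the genes matched 1 annotated gene. Promoter windows are from RefSeq (GRCm38.p6); Pax3, Hoxc5, Hoxb3 and Hoxb6 were not matched.

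Members were mutant nuclei with at least 12000 UMIs, at least 5 UMIs per 10000 of the 4 dopamine genes and 0 UMIs of the 5 rule genes. CPM are the summed UMIs of a gene over a group's nuclei, per 1000000 UMIs of that group. Ratios have exact binomial, levels exact Poisson and shares exact Clopper-Pearson intervals at 95%, for counting error only. A gene was measured with at least 50 UMIs over both groups and called higher or lower at 1.5-fold in lists and 2-fold over all genes, with a pseudocount of 5 CPM. A floor of 3 counts over a group stood for 0. Nuclei were thinned to 12000 UMIs, or 2000 for background, without replacement with a fixed seed. No test was run, as each genotype is 1 library, and doublets were not removed. Silent regulators are listed regulators under 2 CPM in the wt nuclei compared.

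The members, gene lists and limits were chosen with earlier results of these data known. Genes were named by a rule: the rule genes, dopamine genes of the limit, PRC2 core genes and a set of regulators and transmitter genes; of each list up to 5 per direction past 1.5-fold, the furthest first; the 5 highest silent regulators; and outside the lists 8 per direction furthest apart in each comparison, without Gm and Rik names. Not all genes the rule allows are printed. The alternatives were other limits of depth and dopamine genes, the rule at equal depth, a rule of every Hox gene, other comparison nuclei, glia-poor nuclei, each sex, another pseudocount and scaling, and the subtype classes. The calculation was tested on simulated data with known folds. Python 3.11.15, numpy 2.4.6, scipy 1.17.1 and matplotlib 3.10.9 were used.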

Additional observations from a re-analysis of the deposited data

Results flagged for a closer look

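Rule gene RNA was also found outside the nuclei compared. Of 255 mutant nuclei with at least 12000 UMIs and under 0.5 dopamine gene UMIs per 10000, 34 (13.3%, exact binomial 95% interval 9.41 to 18.1%) held a UMI of Hoxc4, Hoxc5, Hoxb3, Hoxb6 or Pax3, against 1 of 70 wt nuclei chosen the same way (1.43%, 0.0362 to 7.70%). Summed, the rule genes had 13.0 CPM (10.5 to 16.0) in the mutant and 2.79 CPM (0.906 to 6.51) in the wt nuclei, with median depths of 25421 and 22354.5 UMIs. The signal is named because these nuclei entered no comparison and the mutant share lies above the wt share. In the same nuclei Hoxc4 was seen in 3.53% of mutant nuclei at 12000 UMIs. Free RNA, nuclei with little dopamine RNA and droplets with more than 1 nucleus were not told apart, and their part was not tested.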

How the results depend on the processing

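Of 168 values recomputed under another setting, 100 moved by no more than the counting interval or, for counts, 1.5-fold. Another 64 moved beyond these bounds without changing direction, toward or away from a ratio of 1 or, for counts, up or down. The other 4 changed direction. With 1 library per genotype no value has a threshold of a test, and no library could be left out. No paired analysis was possible because each genotype is 1 library and no test was run. The silent regulators lay below the rule-positive and above the wt level under every setting run, and Eed above wt; in male-type nuclei, chosen either way, the interval of Eed included 1. The cause of the changes below was not tested. The settings by sex markers in their looser form, the subtype splits and the removal of mixed nuclei were chosen after seeing the data. With at least 20000 UMIs per nucleus, members numbered 123, silent regulators had ratios of 0.291 to rule-positive and 9.06 to wt nuclei and Eed had ratios of 0.659 to rule-positive and 1.34 to wt nuclei. There Gad1 had a ratio of 0.445 to rule-positive nuclei and other dopamine genes had ratios of 0.917 to rule-positive and 0.629 to wt nuclei. In tegmental-leaning nuclei, silent regulators had ratios of 0.390 to rule-positive and 8.08 to wt nuclei, Eed had a ratio of 0.988 to rule-positive nuclei and other dopamine genes had ratios of 1.10 (direction turned) to rule-positive and 0.866 to wt nuclei. There 10 genes were 2-fold higher and 50 lower than in rule-positive nuclei and 66 genes were 2-fold higher and 40 lower than in wt nuclei. Here and below, counts of genes in smaller sets of nuclei are not like for like with those of all nuclei. In male-type nuclei, members numbered 13, silent regulators had ratios of 0.438 to rule-positive and 11.2 to wt nuclei and Eed had a ratio of 2.09 to wt nuclei. There Gad1 had a ratio of 0.893 to rule-positive nuclei, other dopamine genes had ratios of 1.04 (direction turned) to rule-positive and 0.983 to wt nuclei and 238 genes were 2-fold lower than in rule-positive nuclei. There 433 genes were 2-fold lower than in wt nuclei. With the rule read at 12000 UMIs, silent regulators had ratios of 0.377 to rule-positive and 12.4 to wt nuclei and Gad1 had a ratio of 0.570 to rule-positive nuclei. With a rule of Pax3 and every Hox gene, which sets the Hox genes among the silent regulators to 0 in the members, members numbered 249, silent regulators had ratios of 0.250 to rule-positive and 7.82 to wt nuclei and Gad1 had a ratio of 0.458 to rule-positive nuclei. There other dopamine genes had ratios of 0.896 to rule-positive and 0.626 to wt nuclei. Without nuclei with over 5 glial or vascular UMIs per 10000, silent regulators had a ratio of 13.1 to wt nuclei, Gad1 had a ratio of 0.567 to rule-positive nuclei and other dopamine genes had ratios of 0.897 to rule-positive and 0.619 to wt nuclei. In nuclei with 2 or more Y-linked and 1 or fewer Xist UMIs, members numbered 13, silent regulators had ratios of 0.396 to rule-positive and 9.55 to wt nuclei and Gad1 had a ratio of 0.883 to rule-positive nuclei. There other dopamine genes had a ratio of 0.872 to wt nuclei, 267 genes were 2-fold lower than in rule-positive nuclei and 450 genes were 2-fold lower than in wt nuclei. With a pseudocount of 1 CPM, 248 genes were 2-fold higher and 255 lower than in rule-positive nuclei and 287 genes were 2-fold higher and 270 lower than in wt nuclei. In nigral-leaning nuclei, members numbered 55, silent regulators had ratios of 0.376 to rule-positive and 16.7 to wt nuclei and other dopamine genes had ratios of 1.26 (direction turned) to rule-positive and 0.790 to wt nuclei. There 177 genes were 2-fold higher than in rule-positive nuclei and 253 genes were 2-fold higher and 190 lower than in wt nuclei. With a dopamine limit of 10 per 10000, silent regulators had ratios of 0.346 to rule-positive and 11.9 to wt nuclei and other dopamine genes had ratios of 1.06 (direction turned) to rule-positive and 0.754 to wt nuclei. In female-type nuclei, silent regulators had ratios of 0.311 to rule-positive and 12.6 to wt nuclei and other dopamine genes had a ratio of 0.616 to wt nuclei. Against mutant nuclei with 3 or more rule UMIs, silent regulators had a ratio of 0.307 to rule-positive nuclei. With the mean over nuclei of their CPM, silent regulators had a ratio of 11.6 to wt nuclei. Without nuclei with 10 or more Xist and 3 or more Y-linked UMIs, silent regulators had a ratio of 11.0 to wt nuclei. For another scaling, rule-negative levels were divided by the median ratio of genes, in log2 -0.04 against rule-positive nuclei and 0.01 against wt. This scaling turned no direction of a result named here. Depth limits what a rule-negative nucleus shows: at 12000 UMIs a gene of a few CPM is mostly unseen in it, and sums over 385 nuclei carry the comparison. No doublet caller was run.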
